A study of Chlorocebus aethiops with 12 samples.

Results

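RASD1 and 5 other regulators of heterotrimeric G-protein signalling were followed in COS-1 cells, an established line from African green monkey kidney, on 12 one-colour arrays. The members were taken by accession, as every non-control probe for RASD1 (NM_016084), RASD2 (NM_014310), RGS2 (NM_002923), RGS4 (NM_005613), RGS16 (NM_002928) or RGS10 (NM_001005339, with NM_002925 also sought and matched by 0 probes). This gave 6 accessions with 10 probes, of 32379 accessions with 41000 probes in all. All members were proposed with the results for dexamethasone against vehicle in these arrays already known. RASD1 entered the list for its response, and the others as its relatives or as regulators of the same pathway. Values for dexamethasone against vehicle are therefore descriptions and were not used as tests, whereas the comparisons of GR+MDFIC with GR cells were tested.

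Every culture received the glucocorticoid receptor (GR), a transcription factor that steroid binding activates, by transfection, and was kept in medium with charcoal-stripped serum, which removes most steroid. The 4 groups were GR+MDFIC cells with Dex, GR+MDFIC cells with vehicle, GR cells with Dex and GR cells with vehicle, each with 3 biological replicates. MDFIC is the MyoD family inhibitor domain containing protein, and Dex is dexamethasone, a synthetic glucocorticoid that activates GR, given at 100 nM for 6 h from 48 h after transfection. The question was whether MDFIC alters the response of GR target transcripts to Dex. The labels name 1 cell line, do not give the species or promoter of the constructs or the share of cells that took them up, and do not describe how the biological replicates were separated.

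Heterotrimeric G proteins relay signals from cell-surface receptors, switch on when their alpha subunit binds GTP and switch off when it hydrolyses it. RGS proteins speed that hydrolysis and so shorten the signal. RASD1, also called Dexras1 or AGS1, is a Ras-family small GTPase first described as a dexamethasone-induced transcript, and it can activate inhibitory G proteins without a receptor. RASD2, or Rhes, is its closest relative and is known chiefly from the striatum.

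Each level is given as log2 of the processed signal relative to the 75th percentile of the same array. The probes were designed for human transcripts, so levels of different probes were not compared, and a lower level can reflect less RNA per cell or fewer cells expressing it, which cannot be told apart in bulk RNA. The arrays lay on 3 slides. Slide 3 held all GR+MDFIC Dex arrays and GR+MDFIC vehicle replicate 3, slide 2 held the other 2 GR+MDFIC vehicle arrays with GR Dex replicates 2 and 3, and slide 1 held GR Dex replicate 1 with all GR vehicle arrays. A Dex difference within a slide thus rests on 1 vehicle array on slide 3 and on 1 Dex array on slide 1. Slide 3 was dimmer, with a mean 75th percentile signal of 386 against 868 on slide 2 and 850 on slide 1. Well above background were 70.3% to 75.2% of the non-control spots per array, and the number of arrays limits the precision. The labelled cell type and the transfected genes were not checked, since the files give no gene names. Of the 10 member probes, 8 passed a filter that asked for a signal well above background in every replicate of some group, and they were fitted in limma among 30179 probes. Of those 8 probes, 7 were well above background on all 12 arrays, and RASD2 probe 1 passed only through the Dex groups, where it was high.

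RASD1 had a higher level in every Dex array than in any vehicle array, by both of its probes. Probe 1 (A_23_P118392) stood at 3.50, 3.57 and 3.51 in GR+MDFIC Dex cells, against -0.44, -0.41 and -0.54 in GR+MDFIC vehicle cells. In GR cells the same probe stood at 3.39, 3.39 and 3.34 with Dex, against -0.16, -0.34 and -0.25 with vehicle. The replicates of each group lay within 0.2 of each other, and the gap between Dex and vehicle was over 3 log2 units in both kinds of cells. In processed signal, probe 1 read 8343 to 9941 in GR Dex cells and 721 to 735 in GR vehicle cells, so the contrast was visible before any scaling. Probe 1 was 15.9-fold higher with Dex in GR+MDFIC cells (log2 3.99 ± 0.06, SE) and 12.3-fold higher in GR cells (3.62 ± 0.06).

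RASD1 probe 2 (A_24_P348006) gave the same picture from a separate spot of each array. It read -1.03, -1.20 and -1.13 in GR+MDFIC Dex cells, against -4.89, -4.80 and -4.88 in GR+MDFIC vehicle cells. In GR cells it read -1.40, -1.24 and -1.42 with Dex, against -4.99, -5.08 and -5.28 with vehicle. The Dex and vehicle values did not overlap in either kind of cell. The difference was 13.3-fold in GR+MDFIC cells (log2 3.73 ± 0.08, SE) and 13.6-fold in GR cells (3.76 ± 0.08). Among the 25898 probes well above background on all 12 arrays, the RASD1 probes held the first and second largest Dex differences in both kinds of cells. Probe 2 was ahead in GR cells and probe 1 in GR+MDFIC cells. Because RASD1 was listed for its Dex response in these arrays, a high rank followed from that choice. Within slide 3 the Dex differences in GR+MDFIC cells were 4.06 for probe 1 and 3.76 for probe 2, and within slide 1 those in GR cells were 3.64 and 3.72. A background correction with an added offset, applied with quantile scaling after the data were seen, lowered the difference at probe 2 to 1.97 in GR+MDFIC cells and 1.85 in GR cells, and left probe 1 at 3.69 and 3.38.

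The order of the group levels differed between the RASD1 probes at the low end. Both probes were highest in GR+MDFIC Dex cells and next highest in GR Dex cells, with values that did not overlap between these groups. At the low end, probe 1 was lower in GR+MDFIC vehicle cells than in GR vehicle cells, and probe 2 was higher. The tested difference of GR+MDFIC from GR in vehicle was -0.21 for probe 1 (limma, Benjamini-Hochberg adjusted p = 0.128) and 0.26 for probe 2 (adjusted p = 0.174, limma). Neither passed the threshold of an adjusted p under 0.05, and the probes pointed in opposite directions. With Dex, GR+MDFIC cells stood above GR cells by 0.16 (95% interval 0.03 to 0.28) at probe 1 and by 0.23 (0.04 to 0.42) at probe 2, and neither passed (limma, adjusted p = 0.136 and 0.132). These intervals are for single probes and are not adjusted for the number of probes.

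The Dex effect on RASD1 did not pass the test of a difference between the kinds of cells. At probe 1 the effect was 0.36 larger in GR+MDFIC cells than in GR cells (95% interval 0.18 to 0.54, limma adjusted p = 0.34). At probe 2 it was -0.03 (95% interval -0.29 to 0.23, limma adjusted p = 0.938). Without GR+MDFIC vehicle replicate 3, probe 1 passed at 0.33 (limma, adjusted p = 0.048), and 2059 probes of the whole array then passed in place of 16.

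RASD2 was dim on these arrays and its probes differed from each other. Probe 1 (A_23_P143673) read -4.47, -4.62 and -4.75 in GR+MDFIC Dex cells, all well above background, against -6.02, -5.71 and -6.49 in GR+MDFIC vehicle cells, none of them well above it. GR cells gave -4.19, -4.43 and -4.51 with Dex, against -7.12, -4.90 and -6.20 with vehicle, where replicate 2 alone was well above background. The Dex values lay above the vehicle values in both kinds of cells, with one GR vehicle array less than 0.5 below the lowest GR Dex array. In GR+MDFIC cells the mean Dex level was 2.37-fold above a vehicle level held at a floor. The measured means were -4.62 with Dex and -6.07 with vehicle. The floor of a vehicle array was its lowest signal of any probe well above background. Where the probe's own signal was higher, that signal was used. The 2.37-fold value is not a lower limit. Vehicle replicates 1 and 2, on slide 2, read 12.7 and 14.4 in processed signal, above floors of 11.03 and 12.95, yet were not well above background. Vehicle replicate 3, on slide 3, read 4.30 against a floor of 6.71. The Dex arrays, all on slide 3, read 16.4, 15.4 and 15.4, where the lowest signals well above background were 6.06, 5.75 and 5.45. The part of the slide in this contrast was not tested. The fitted differences of 1.46 ± 0.45 in GR+MDFIC cells and 1.70 ± 0.45 in GR cells (log2, SE) include levels that were not well above background. Without GR vehicle replicate 1 the second was 1.17, and without replicate 2 it was 2.28. Under a background correction with an added offset and quantile scaling the differences were 0.22 in GR+MDFIC cells and 0.34 in GR cells. Under that background correction alone they were 1.40 in GR+MDFIC cells and 0.16 in GR cells. The median of all probes then stood at 0.48 in GR+MDFIC cells and -0.09 in GR cells.

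RASD2 probe 2 (A_24_P357100), well above background on all 12 arrays, differed in spread between groups, with an SD over replicates of 0.05 in GR+MDFIC Dex cells, against 0.62 in GR+MDFIC vehicle cells. It read -2.69, -2.75 and -2.65 in GR+MDFIC Dex cells, against -3.17, -3.98 and -2.75 in GR+MDFIC vehicle cells. GR cells gave -3.40, -3.74 and -3.83 with Dex, against -4.48, -4.42 and -3.79 with vehicle. GR+MDFIC vehicle replicate 3, on the slide of the Dex arrays, lay at nearly their level, and within slide 3 the Dex difference was 0.05, against 0.60 ± 0.29 (SE) over all slides. GR Dex and GR vehicle values overlapped, with a difference of 0.58 ± 0.29 (SE). GR+MDFIC cells stood above GR cells by 0.96 with Dex (95% interval 0.31 to 1.61, limma adjusted p = 0.0833) and by 0.93 with vehicle (0.28 to 1.58, limma adjusted p = 0.168). Neither difference passed, and with slide as a block the first was 0.26. In limma the first passed in 4 of 25 alternatives, which were the fit of only the compared groups (adjusted p = 0.0098), the fits without GR+MDFIC vehicle replicate 2 (0.0314) or replicate 3 (0.0337), and the background correction with quantile scaling (0.0491). The second passed in 1 of 26, at 1.27 without GR+MDFIC vehicle replicate 2 (limma, adjusted p = 0.0475).

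**Figure D1:**
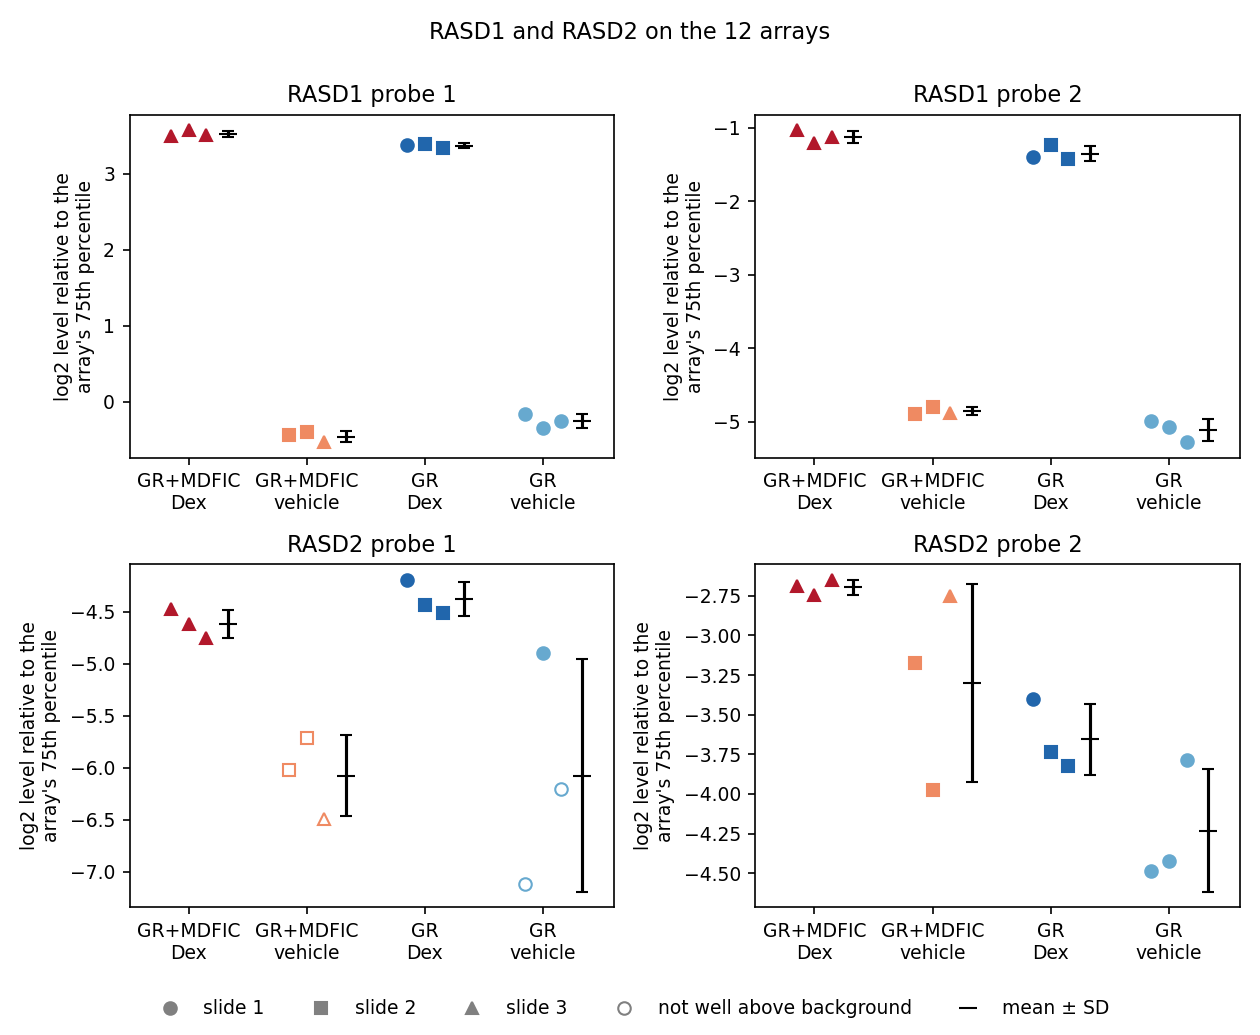
Levels of the RASD1 and RASD2 probes on each array, as log2 relative to the 75th percentile of the array, with groups on the horizontal axis, marker shape for the slide, open markers for spots not well above background, and the mean ± SD of 3 replicates beside each group. Both RASD1 probes separate Dex from vehicle arrays by over 3 units, while RASD2 probe 1 is not well above background on 5 vehicle arrays and RASD2 probe 2 spreads widely in vehicle.

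RGS2, which acts chiefly on the Gq class of alpha subunits, was the other member with a clearly higher level in Dex. It read 1.42, 1.55 and 1.58 in GR+MDFIC Dex cells, against 0.02, -0.04 and 0.13 in GR+MDFIC vehicle cells. The GR cells read 1.39, 1.33 and 1.38 with Dex, against 0.17, -0.003 and 0.08 with vehicle. All 6 Dex arrays lay above all 6 vehicle arrays, with a gap of over 1 log2 unit. The Dex level was 2.78-fold higher in GR+MDFIC cells (log2 1.48 ± 0.06, SE) and 2.44-fold higher in GR cells (1.28 ± 0.06). The same differences were 1.39 within slide 3 and 1.30 within slide 1. Among the probes measured on all 12 arrays, 54 had a larger Dex difference than RGS2 in GR+MDFIC cells and 44 in GR cells.

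No difference between GR+MDFIC and GR cells passed the test for RGS2. GR+MDFIC vehicle and GR vehicle values overlapped, with a difference of -0.04 (95% interval -0.19 to 0.10, limma adjusted p = 0.784). With Dex the GR+MDFIC values lay above the GR values by 0.15 (0.004 to 0.30), which did not pass (limma, adjusted p = 0.2) and was 0.02 with slide as a block. The difference of the Dex effects was 0.19 (-0.01 to 0.40, limma adjusted p = 0.543).

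RGS16 is a small regulator of the same subfamily as RGS2 that acts on Gi and Gq alpha subunits. It was the member with differences between the kinds of cells that passed, at 1 of its 2 probes. All GR+MDFIC Dex arrays lay on the dimmer slide 3, and neither difference passed with slide as a block. Probe 1 (A_23_P217845) read -5.59, -5.48 and -5.64 in GR+MDFIC Dex cells, against -4.48, -4.52 and -4.79 in GR+MDFIC vehicle cells. In GR cells it read -4.66, -4.60 and -4.59 with Dex, against -4.59, -4.50 and -4.56 with vehicle. The GR+MDFIC Dex arrays lay below all other arrays, and the other 3 groups overlapped each other. The level with Dex was 1.96-fold lower than with vehicle in GR+MDFIC cells (log2 -0.97 ± 0.08, SE), against a log2 difference of -0.07 ± 0.08 in GR cells. Relative to GR Dex cells, GR+MDFIC Dex cells fell 1.93-fold (log2 -0.95 ± 0.08 SE, limma adjusted p = 0.00057). The difference of the Dex effects was -0.91 ± 0.11 (SE, 95% interval -1.16 to -0.65, limma adjusted p = 0.035).

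RGS16 probe 2 (A_23_P320578) did not show that pattern. It read -2.86, -3.09 and -3.26 in GR+MDFIC Dex cells, against -3.30, -3.36 and -3.14 in GR+MDFIC vehicle cells. In GR cells it read -2.88, -3.02 and -2.80 with Dex, against -3.26, -2.69 and -3.07 with vehicle. Dex and vehicle values overlapped in both kinds of cells, as did GR+MDFIC and GR values in each treatment. The Dex difference was 0.20 ± 0.15 in GR+MDFIC cells and 0.11 ± 0.15 in GR cells (log2, SE), and the difference of the Dex effects was 0.09 (95% interval -0.38 to 0.57, limma adjusted p = 0.903). That interval did not include the value of -0.91 found at probe 1. The probes share the accession NM_002928, and their positions within the transcript were not used here.

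RGS16 probe 1 was close to background on the arrays where it was low. Its processed signals were 7.59, 8.48 and 8.28 in GR+MDFIC Dex cells, where the lowest signals of any probe well above background were 6.06, 5.75 and 5.45. In GR+MDFIC vehicle cells they were 36.9 and 32.9 on slide 2 and 14.0 on slide 3, against lowest signals of 11.03, 12.95 and 6.71. In the GR groups they ranged from 31.6 to 39.2 with Dex and from 33.6 to 40.4 with vehicle. Within slide 3 alone the Dex difference at probe 1 was -0.78. With slide as a block the difference of the Dex effects was -0.68 and did not pass (limma, adjusted p = 0.132), nor did that from GR Dex cells, at -0.69 (limma, adjusted p = 0.0751). Background correction with an added offset of 50 turned the difference of the Dex effects to 1.21, where the median of all probes also moved to 0.53, and combined with quantile scaling it was -0.21. The difference of the Dex effects stayed called in 5 of the 23 alternatives, whose adjusted p ranged from 0.000803 to 0.409 (limma). The 5 included the deposited series values and the fit with outlier spots kept, which leave the values of this probe unchanged. Leaving out any 1 array other than GR+MDFIC Dex replicate 2 or GR+MDFIC vehicle replicate 3 ended the call. The part of the low signal in this result was not tested.

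**Figure D2:**
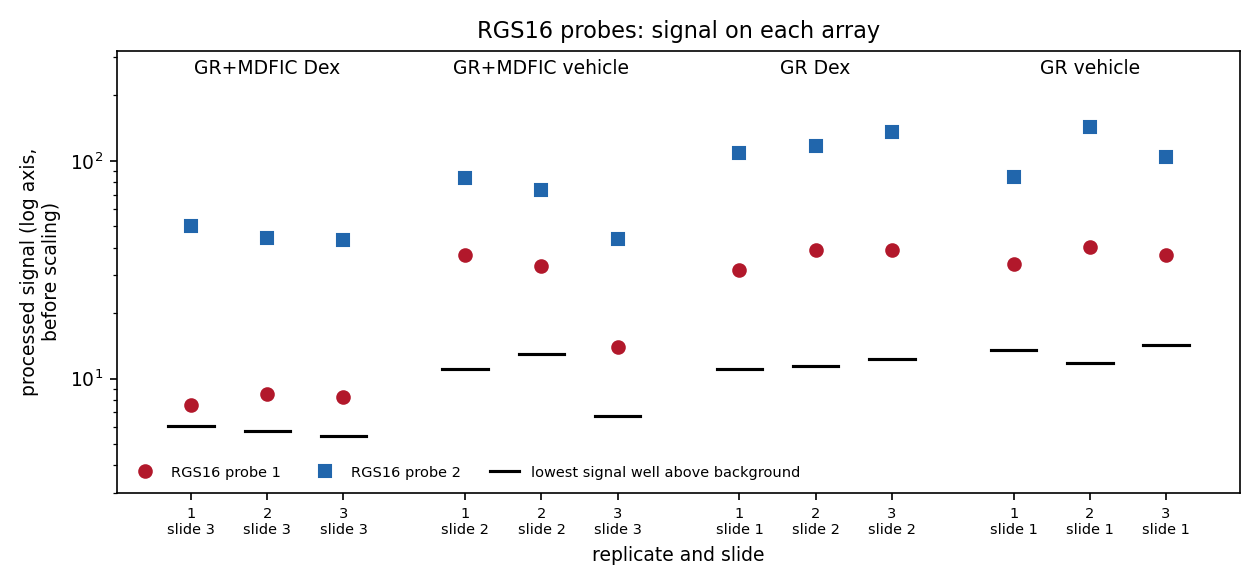
Processed signal of the RGS16 probes on each of the 12 arrays before scaling, on a log axis, with a bar at the lowest signal of any probe well above background on that array. RGS16 probe 1 lies between 7.59 and 8.48 on the GR+MDFIC Dex arrays, close to the bars, and between 31.6 and 40.4 in the GR groups, while RGS16 probe 2 is lower on all 4 arrays of slide 3 than elsewhere.

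RGS10, a small RGS protein that acts on Gi-class alpha subunits, was nearly constant. Its probe (A_23_P138717) read 4.07, 4.12 and 4.15 in GR+MDFIC Dex cells, against 3.99, 3.996 and 4.01 in GR+MDFIC vehicle cells. In GR cells it read 4.03, 4.04 and 4.03 with Dex, against 4.14, 3.99 and 3.99 with vehicle. All 12 values lay within 0.2 of each other. The Dex difference was 0.12 ± 0.05 (SE) in GR+MDFIC cells and -0.01 ± 0.05 in GR cells. The difference of the Dex effects was 0.12 (95% interval -0.03 to 0.28, limma adjusted p = 0.575), and GR+MDFIC and GR cells differed by 0.09 with Dex and -0.04 with vehicle (limma, adjusted p = 0.315 and 0.73).

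RGS4, which acts on Gi and Gq alpha subunits and is known from the nervous system, gave no measured level. Neither of its probes (A_23_P200737 and A_23_P433855) was well above background on any of the 12 arrays. Probe 1 gave processed signals from 1.78 to 7.47 and probe 2 from 1.19 to 3.01, and no fold was computed.

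**Figure D3:**
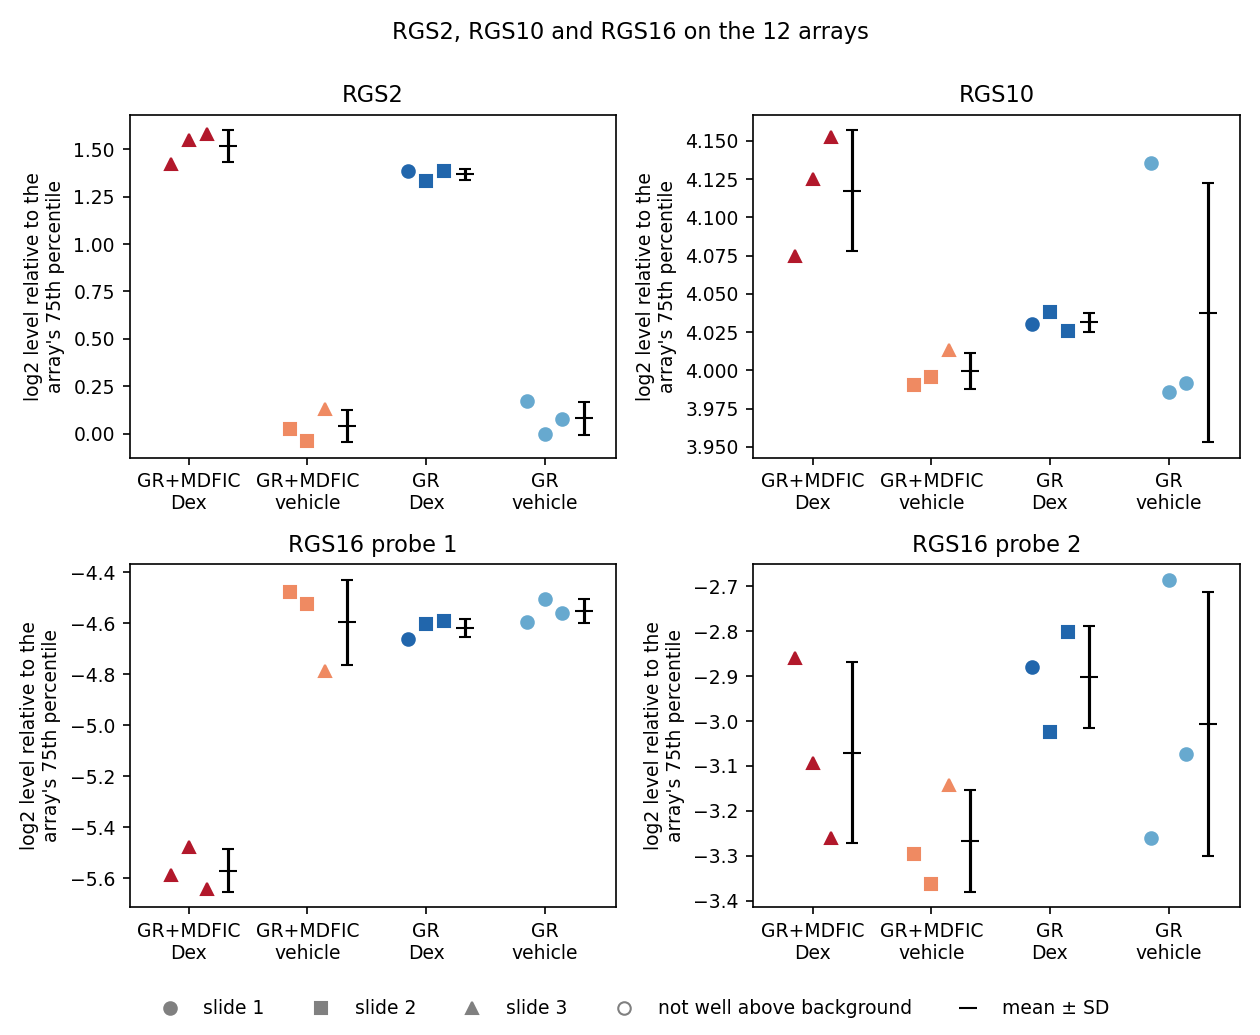
Levels of the RGS2, RGS10 and RGS16 probes on each array, as log2 relative to the 75th percentile of the array, drawn as for the RASD genes. RGS2 is over 1 unit higher in all Dex arrays, RGS10 spans less than 0.2 units, and RGS16 probe 1 has its GR+MDFIC Dex arrays below all others, at -5.64 to -5.48.

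Counted over the 8 probes fitted, 4 differed between Dex and vehicle in GR+MDFIC cells at a limma adjusted p under 0.05, against 12.9% of all 30179 probes (6.27% higher and 6.65% lower), and 3 did so in GR cells, against 6.75% (4.15% higher). Those 3 were the RASD1 probes and RGS2, higher with Dex in both kinds of cells, and the fourth was RGS16 probe 1, lower in GR+MDFIC cells. RASD1 was chosen on this contrast, and RASD2 probe 1 passed the filter only through the Dex groups, where it was high. Nothing is therefore read from these counts, nor from the median and the overlap given next. The median Dex difference over the 8 probes was 1.03 in GR+MDFIC cells and 0.93 in GR cells, against -0.01 and 0.01 over all probes. Values did not overlap between Dex and vehicle for 7 of the 8 probes in GR+MDFIC cells and for 4 in GR cells, against 31.9% and 25.8% of all probes.

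In the tested comparisons few member probes passed. In vehicle, 0 of 8 differed between GR+MDFIC and GR cells at a limma adjusted p under 0.05, against 0.775% of all probes. With Dex, 1 of 8 differed, RGS16 probe 1, against 4.83% of all probes (2.47% lower). Of the 8 differences of the Dex effects 1 passed, again RGS16 probe 1, against 0.053% of all probes. Values of GR+MDFIC and GR cells did not overlap for 6 of 8 probes with Dex and for 2 with vehicle, against 31% and 21.8% of all probes. No slide holds both kinds of cells in the same treatment, so differences of GR+MDFIC from GR cells can be set apart from the slide only through the slide block. The Dex effects can be taken within slides, which gives the same values as the slide block and is no separate check. For RGS16 probe 1 they were -0.78 in GR+MDFIC cells on slide 3, with 1 vehicle array, and -0.11 in GR cells on slide 1, with 1 Dex array. Under the slide block both RGS16 probe 1 calls were lost (limma, adjusted p = 0.0751 and 0.132). Both comparisons share their groups with the Dex comparisons.

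**Figure D4:**
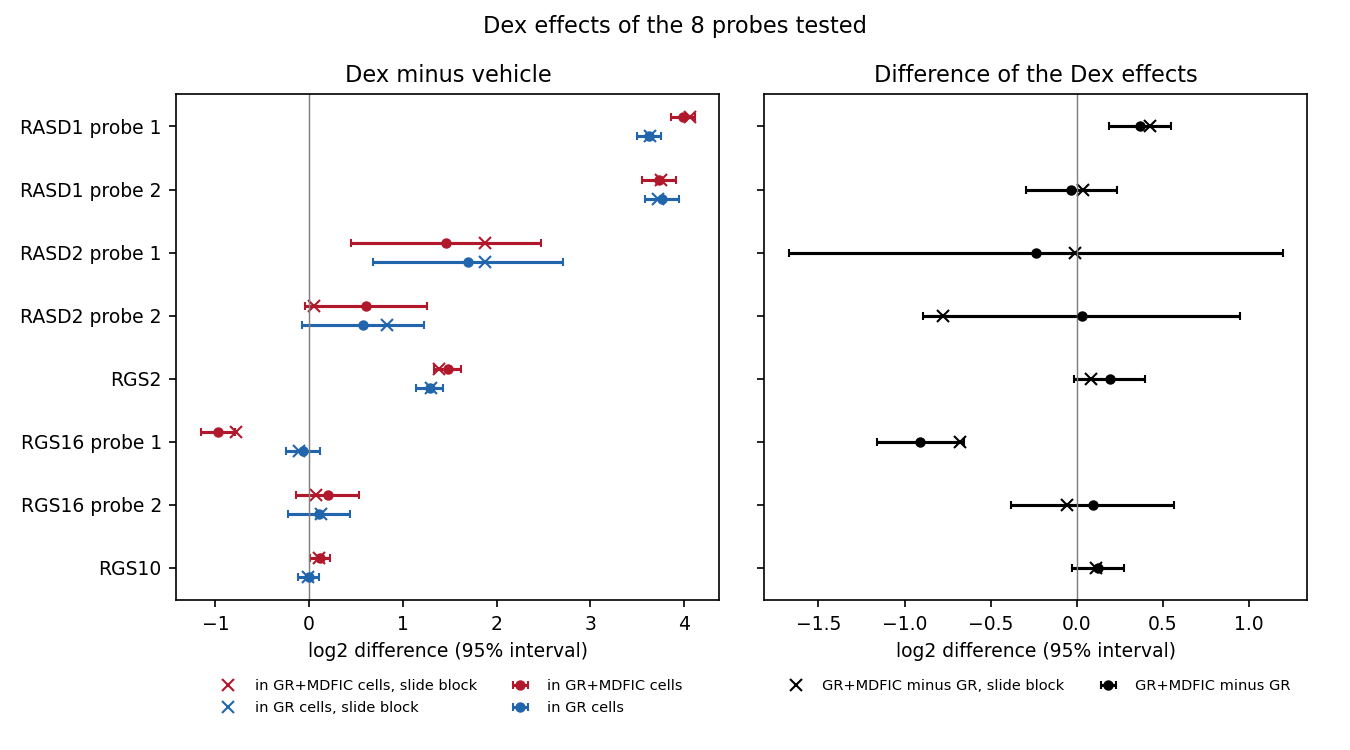
Dex minus vehicle in GR+MDFIC and in GR cells (left) and the difference of these Dex effects (right) for the 8 probes fitted, on the log2 scale with 95% intervals from limma, and crosses for the values with slide as a block. The RASD1 probes lie between 3.62 and 3.99 at left, RGS2 between 1.28 and 1.48, and at right RGS16 probe 1 stands at -0.91 while the interval of RGS16 probe 2 includes 0.

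The profile of RASD1 over the 12 arrays was compared with that of every other probe measured on all of them. The measure was the root mean square difference over the 12 arrays after the mean of each probe was subtracted, in log2 units, so that 0 means the same profile. RASD1 probe 2 was the closest of 25897 probes to RASD1 probe 1, at 0.19. The next accessions were NM_002686, at 0.55, and NM_015193, at 0.59. NM_002686 read -1.91, -1.84 and -1.90 in GR+MDFIC Dex cells, against -4.89, -4.59 and -4.71 in GR+MDFIC vehicle cells, a difference of 2.84. Its Dex difference in GR cells was 2.60, and those of NM_015193 were 2.78 in GR+MDFIC cells and 2.51 in GR cells. Because these accessions were chosen for a profile like that of RASD1, Dex differences in the same direction followed from the choice. Their differences were smaller than those of RASD1 by about 1 log2 unit. RGS2 ranked 34 in likeness, at 1.22, and the remaining members ranked 965 or lower.

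**Figure D5:**
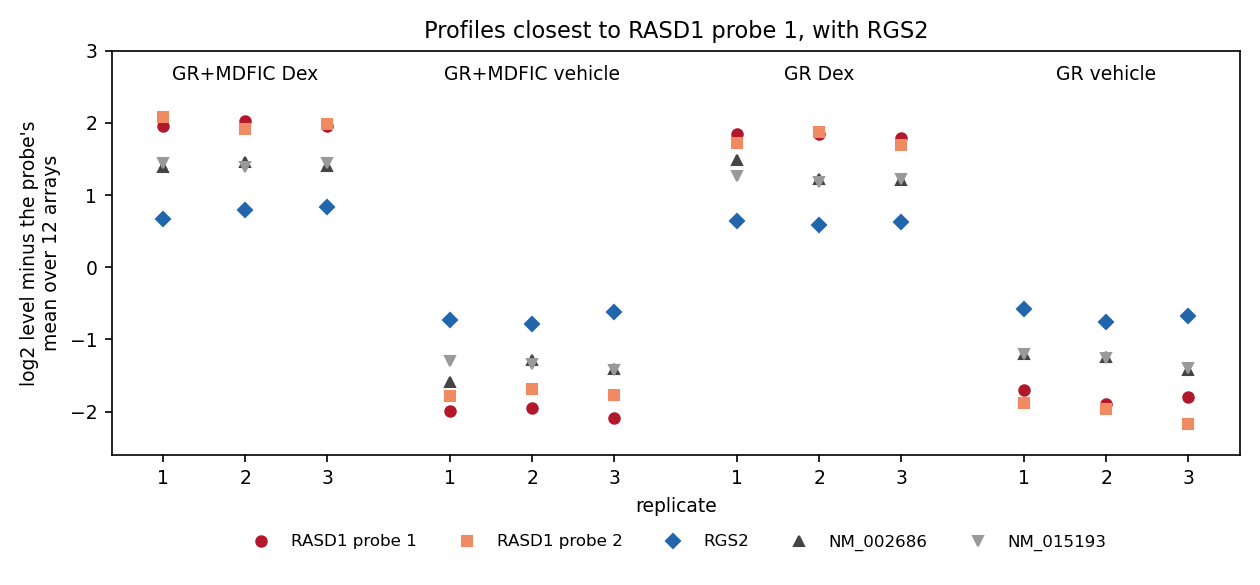
Level of each probe minus its mean over the 12 arrays, in log2 units, for both RASD1 probes, RGS2 and the 2 accessions closest to RASD1 probe 1, by group and replicate. All 5 are above 0 on every Dex array and below 0 on every vehicle array, with RASD1 farthest from 0 and RGS2 nearest to it.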

How the data were processed

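The deposited intensities are on a linear scale, 1 array per sample, with Cy3-labelled RNA from 500 ng of total RNA, per the labels. Per the file headers, Agilent Feature Extraction (12.0.0.7 for slides 1 and 2, 12.0.3.1 for slide 3; version 12 per the submitters' processing notes) subtracted the background and removed spatial trends, with no scaling between arrays. Deposited flags (other values of 0 or 1, per the file headers) mark spots well above background, saturated or not uniform. The deposited series-wide values are the same processed signals (largest difference 0).

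From the log2 of each signal, the 75th percentile over the 43376 non-control spots of its array was subtracted. Outlier spots were set to missing (42 values among probes fitted, 0 in members), and spots of 1 probe averaged (264 probes). Probes well above background on all 3 arrays of 1 group, with at least 2 unflagged arrays in each group, were kept (30179). A group-means model over 12 arrays was fitted in limma 3.58.1 (R 4.3.3, 8 residual degrees of freedom), each probe apart, with two-sided tests and Benjamini-Hochberg adjustment over all probes kept. On simulated data for Dex against vehicle in GR cells with 30179 probes, 82.0% of rises and 80.0% of falls of 1 log2 unit were recovered. The simulated noise was independent between arrays and held no slide effect, so these shares do not describe the actual slide layout. Data were read with the data.table package (version 1.17.8) and drawn with matplotlib 3.10.9 (Python 3.11.15).

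The members and tests were chosen with earlier results of these data known. Named probes were every member probe plus the 2 accessions starting with NM closest to the RASD1 probe with the higher mean. Lists of other pathway genes and cell type markers were not used, because the files pair no accessions with symbols. Member names come from the list of accessions used to choose them. No sequences were at hand and none are printed. Alternatives covered scaling, background correction (the planned mean signal was not used here, so medians served), filters, slide and replicate blocks, variance models, the arrays fitted and 1 probe per accession.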

Additional observations from a re-analysis of the deposited data

Results flagged for a closer look

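RGS16 probe 1 was noted because the effect of Dex on it was not equal in GR+MDFIC cells and in GR cells: limma put the difference of the effects at -0.91 on the log2 scale (adjusted p = 0.035). The Dex effect was -0.97 in GR+MDFIC cells and -0.07 in GR cells, while RGS16 probe 2 gave 0.20 and 0.11. The signals of probe 1 were 7.59 to 8.48 on the GR+MDFIC Dex arrays, all on the dimmer slide 3, and the part of low signal was not tested. With slide as a block the difference of the effects was -0.68 and did not pass (limma, adjusted p = 0.132). It passed in 5 of 23 alternatives, which include the deposited series values and outlier spots kept, where the values of this probe are unchanged.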

How the results depend on the processing

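Both RASD1 probes and RGS2 stayed higher with Dex and past the threshold in both kinds of cells under every alternative that gave them a value. This is a description and no support, since the members were proposed with this contrast known. In log2, RASD1 probe 1 ranged from 3.38 to 3.67 in GR and 3.40 to 4.06 in GR+MDFIC cells. RASD1 probe 2 ranged from 1.85 to 3.83 and 1.97 to 3.77, and RGS2 from 1.13 to 1.33 and 1.12 to 1.52. Under normexp alone RGS2 was 1.12 in GR+MDFIC cells, where the median of all probes was 0.48. Of the recomputed member differences, 904 kept direction and side of the threshold, 51 changed sign, 18 lost a call with the sign kept and 15 gained one. The filters, outlier spots kept, the deposited series values and the variance model could not change a member's difference. Nor could leaving out an array of a group not compared, so the 904 does not measure stability. Among the sign changes, RGS16 probe 1 under normexp also lost its call in 3 comparisons (adjusted p = 0.172, 0.0899 and 0.315, limma). The cause of the changes below was not tested.

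The 1 difference of Dex effects that passed became 0 under quantile scaling, normexp background correction, no filter on dim probes, slide as fixed or random block, the replicate block, 1 probe per accession (which leaves that probe out), an intensity trend with robust variance, and normexp with quantile scaling (added after the data were seen). The 1 member called between GR+MDFIC and GR with Dex became 0 under normexp, the fixed slide block and 1 probe per accession, 2 with only the compared groups fitted, and 3 under normexp with quantile scaling. One probe per accession left 2 calls for Dex in GR+MDFIC cells. Leaving out 1 array gave 0 to 2 calls for the difference of Dex effects, 1 to 2 for MDFIC with Dex and 0 to 1 for MDFIC in vehicle.

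Over all probes, calls ranged from 32 to 2343 for Dex in GR cells, 81 to 7541 for Dex in GR+MDFIC cells, 10 to 625 in the MDFIC comparison in vehicle, 8 to 3570 for GR+MDFIC against GR with Dex and 0 to 2059 for the difference of effects, against 2036, 3899, 234, 1458 and 16. The highest counts in the last 4 came without GR+MDFIC vehicle replicate 3. With slide as a fixed block, 73.5%, 66.4%, 78.2% and 32.1% of the first 4 sets of calls were higher, against 61.4%, 48.6%, 68.4% and 49.0%.

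Correlations of deviations from the group means gave no sign that replicate numbers pair the samples, which does not exclude pairing. They were -0.24 to 0.15 for same-numbered samples and -0.24 to 0.22 for others. The replicate block left 3, 4, 0, 1 and 0 member calls in the 5 comparisons.

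The sign changes were as follows. Under normexp alone, which also put the median of all probes at 0.48 (Dex in GR+MDFIC cells), 0.54 (MDFIC with Dex) and 0.53 (difference of effects), Dex in GR cells gave RGS16 probe 2 -0.088 and RGS10 0.073, and Dex in GR+MDFIC cells gave RGS16 probe 1 0.95 and RGS10 -0.33. MDFIC in vehicle gave RASD2 probe 1 0.076, RGS16 probe 1 0.033 and RGS10 0.027. MDFIC with Dex gave RASD1 probe 1 -0.30, RASD2 probe 1 1.31, RGS2 -0.21, RGS16 probe 1 1.24, RGS16 probe 2 0.92 and RGS10 -0.37. The difference of effects was -0.12 for RASD1 probe 1, 0.36 for RASD1 probe 2, 1.24 for RASD2 probe 1, -0.10 for RGS2, 1.21 for RGS16 probe 1 and -0.40 for RGS10. Relative to the median of all probes, RGS16 probe 1 stood there at 0.46, 0.70 and 0.68 in those 3 comparisons. With the fixed slide block, RASD2 probe 1 was 0.49 for MDFIC in vehicle and 0.48 with Dex, and the difference of effects was 0.034 for RASD1 probe 2, -0.77 for RASD2 probe 2 and -0.057 for RGS16 probe 2. With the random slide block, RASD2 probe 1 was 0.0232 for MDFIC in vehicle and RASD2 probe 2 -0.13 for the difference of effects. Without slide 3, MDFIC in vehicle gave RASD2 probe 1 0.21 and RGS16 probe 1 0.051. Quantile scaling gave RGS10 0.021 for Dex in GR cells and RASD1 probe 2 0.054 for the difference of effects. Normexp with quantile scaling gave 0.047 and 0.11 for the same values, and 0.012 for RASD2 probe 1 and 0.066 for RGS10 for MDFIC in vehicle. Leaving out 1 array, the difference of effects spanned -0.095 to 0.050 for RASD1 probe 2, -0.83 to 0.29 for RASD2 probe 1, -0.31 to 0.30 for RASD2 probe 2 and -0.070 to 0.22 for RGS16 probe 2. MDFIC in vehicle spanned -0.52 to 0.59 for RASD2 probe 1, -0.088 to 0.0021 for RGS2, -0.10 to 0.051 for RGS16 probe 1 and -0.064 to 0.011 for RGS10. Dex in GR cells spanned -0.022 to 0.27 for RGS16 probe 2 and -0.032 to 0.043 for RGS10.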
